A study of Homo sapiens with 7 samples.

Results

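Open chromatin was described at the loci of 7 genes of class 3 semaphorin signalling: the ligand genes SEMA3A, SEMA3C, SEMA3D and SEMA3E, the coreceptor genes NRP1 and NRP2, and the receptor gene PLXNA2. A peak belonged to a locus when its summit lay in the gene's span or within 100 kb of either end (hg38). The 7 loci held 2620 of the 2093738 deposited peaks, and 7 of 19974 protein-coding genes. The loci were put forward because SEMA3D and NRP1 had among the most opening regions in these same libraries. The members were thus chosen by measured gains of open regions, from hAFE to hPFE at SEMA3D and from hESC to hDE at NRP1. Counts of gains are therefore descriptions and support nothing.

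The data were ATAC-seq peak lists, in which the Tn5 transposase marks accessible DNA by the places where it inserts adapters. All 7 libraries came from the established human embryonic stem cell line H1, cultured along a directed path to pharyngeal foregut endoderm, the tissue that lines the embryonic throat. There were 2 libraries of the undifferentiated cells (hESC), 2 of definitive endoderm (hDE), 2 of anterior foregut endoderm (hAFE) and 1 of the pharyngeal end point (hPFE). The labels name no genetic change, no culture agent and no day, and nothing in them shows that replicates were separate cultures. The titles mark the 4 libraries of hESC and hDE, and not the other 3, as re-analysed. From hDE to hAFE, and in the direct comparison of hESC with hPFE, stage and origin of the libraries therefore cannot be told apart.

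Class 3 semaphorins are secreted proteins that steer growing axons, migrating neural crest cells and sprouting vessels, mostly by repulsion. Most of them bind a neuropilin on the target cell, and the neuropilin passes the signal on through a plexin of the A class, which acts on the cytoskeleton. SEMA3E is the exception, since it can signal through plexin D1 without a neuropilin. Neuropilins also bind vascular endothelial growth factors. In the embryo the pharyngeal arches lie on the path of neural crest cells and vessels that respond to these ligands.

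Peaks that overlapped within a library were merged, and the 50,000 strongest regions of each library are called strict. Strict is thus a rank within a library and not the same level of signal in all. The lowest −log10 p of a strict region was 8.89 and 36.19 in the hESC pair and 15.42 and 97.06 in the hDE pair. It was 27.93 and 21.14 in the hAFE pair and 15.25 in hPFE. The merged strict regions of all libraries numbered 129718, of which 195 lay at the 7 loci. PLXNA2 had 40, SEMA3A 35, SEMA3D 26, SEMA3E 26, NRP2 25, SEMA3C 22 and NRP1 21. Summit height is given below as the pileup at the summit, recovered from the deposited values, divided by the library's own genome-wide background. That background, which grows with depth, was lowest in hESC replicate 1 (2.11) and highest in hDE replicate 2 (7.94). The median height of a strict region ran from 11.7 in hPFE to 33.8 in hAFE replicate 1, so heights of different libraries are not on one scale. A region without a deposited peak lay below what the list of that library holds, which is not the same as closed chromatin, and the weakest deposited heights ran from 2.47 to 3.78. In bulk libraries, fewer cells with an open region and less open chromatin per cell cannot be told apart.

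Most start sites of these genes had a peak in every library, but 1 start of SEMA3C had none and 1 start of SEMA3E lacked one in hPFE. RefSeq promoter sequences (GRCh38.p14, 250 bases before a start to 50 after it) were held for 5 of the 7 genes, 7 promoters in all; SEMA3A and NRP1 have no entry. The 4 sequences below carry the contrast between the starts and are printed 5′ to 3′ on the gene's own strand, with every CpG in capitals. SEMA3C start 1 is at chr7:80922340-80922639, SEMA3C start 2 at chr7:80919002-80919301, SEMA3E start 1 at chr7:83649090-83649389 and SEMA3D at chr7:85187007-85187306, all on the minus strand.
SEMA3C start 1: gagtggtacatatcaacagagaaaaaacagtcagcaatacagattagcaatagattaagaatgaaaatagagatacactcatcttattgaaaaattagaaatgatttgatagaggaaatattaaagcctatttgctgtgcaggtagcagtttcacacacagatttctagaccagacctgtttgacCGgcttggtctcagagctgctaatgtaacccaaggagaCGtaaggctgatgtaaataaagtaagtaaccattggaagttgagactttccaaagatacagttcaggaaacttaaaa
SEMA3C start 2: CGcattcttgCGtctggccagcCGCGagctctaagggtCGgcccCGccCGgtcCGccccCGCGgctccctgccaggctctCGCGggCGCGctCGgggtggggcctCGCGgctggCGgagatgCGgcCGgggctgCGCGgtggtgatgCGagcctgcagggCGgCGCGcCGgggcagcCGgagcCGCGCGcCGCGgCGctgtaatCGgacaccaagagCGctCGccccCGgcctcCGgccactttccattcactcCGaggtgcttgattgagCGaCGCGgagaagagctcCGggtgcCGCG
SEMA3E start 1: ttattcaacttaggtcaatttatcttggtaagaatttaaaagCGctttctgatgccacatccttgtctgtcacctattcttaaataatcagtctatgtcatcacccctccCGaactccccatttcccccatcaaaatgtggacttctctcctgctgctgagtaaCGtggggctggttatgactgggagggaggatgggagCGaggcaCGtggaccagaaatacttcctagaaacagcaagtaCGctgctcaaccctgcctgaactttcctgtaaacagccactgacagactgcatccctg
SEMA3D start: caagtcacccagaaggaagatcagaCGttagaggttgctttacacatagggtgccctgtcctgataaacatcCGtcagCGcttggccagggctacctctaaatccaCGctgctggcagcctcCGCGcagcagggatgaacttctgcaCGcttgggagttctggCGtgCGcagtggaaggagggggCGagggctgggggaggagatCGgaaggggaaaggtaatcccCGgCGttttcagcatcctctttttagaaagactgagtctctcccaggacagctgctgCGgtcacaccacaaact

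SEMA3C start 1 holds 2 CpG and 36.0% G and C, and no library had a peak over it. SEMA3C start 2, inside the gene, holds 46 CpG and 75.7% G and C. Its summit height was 36.5 and 46.5 in the hESC pair, 56.6 and 72.3 in the hDE pair, 133 and 119 in the hAFE pair and 44.3 in hPFE. The hAFE values were the highest at any of the 195 regions, and every library called this region strict. SEMA3D, with 14 CpG and 57.0% G and C, had heights of 47.9 and 46.1 in the hESC pair, 37.6 and 73.7 in the hDE pair, 68.5 and 74.3 in the hAFE pair and 24.2 in hPFE, strict in every library. SEMA3E start 1, with only 6 CpG and 47.3% G and C, had heights of 11.8 and 15.4 in the hESC pair, 40.4 and 70.0 in the hDE pair, 21.6 and 21.6 in the hAFE pair and 4.59 in hPFE. Both hDE values lay above all other libraries, and hPFE was the lowest and the only library in which the region was not strict. At SEMA3E start 2, with 1 CpG, the height was 3.79 and 7.36 in the hESC pair, 7.42 and 24.4 in the hDE pair and 21.6 and 8.57 in the hAFE pair, and hPFE had no peak. NRP2 and PLXNA2, with 33 and 29 CpG, had a peak over the start in every library, from 20.5 to 72.1 at NRP2 and from 16.6 to 65.3 at PLXNA2.

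**Figure D1:**
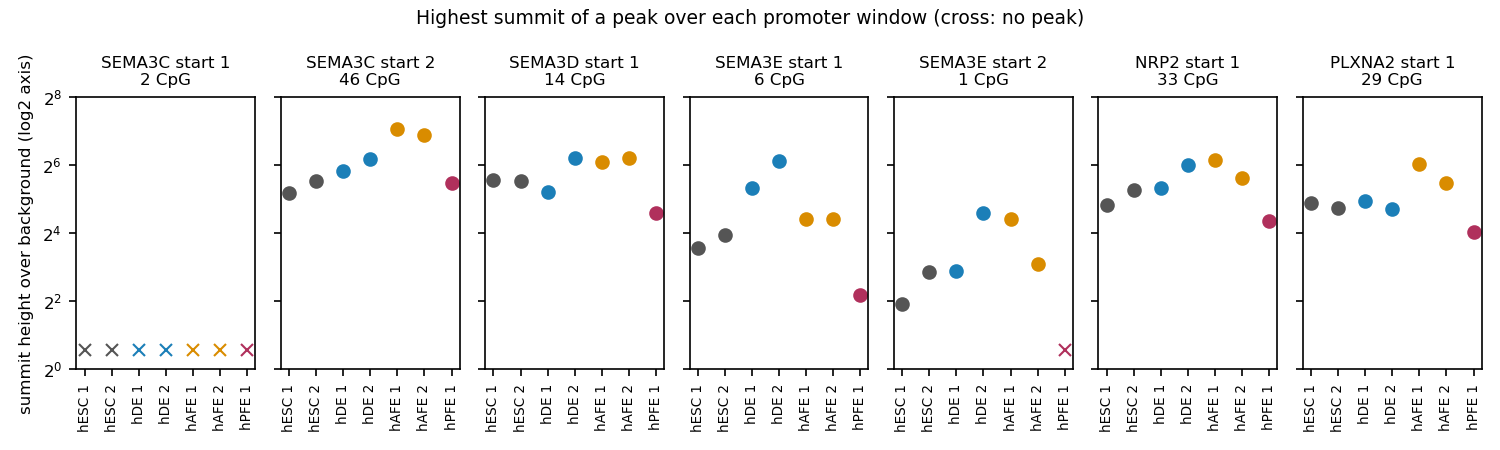
Highest summit of a peak over each of the 7 promoter windows, by library, as height over the library's background on a log2 axis; crosses mark no peak. SEMA3C start 1 has no peak in any library, SEMA3C start 2 is highest in hAFE (133 and 119), and SEMA3E start 1 is highest in hDE (40.4 and 70.0) and lowest in hPFE (4.59).

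Promoters poor in CpG are open less often in this series as a whole. Of 22132 promoters of protein-coding genes, 63.2% had a peak in every library, and the share was 5.2% with up to 4 CpG, 20.8% with 5 to 9, 65.1% with 10 to 19 and 91.9% with 20 or more. SEMA3E start 1 was thus among the 20.8% of its CpG class with a peak in all 7 libraries. The letters AGATAA or TGATAA, which GATA factors recognise, stand on either strand in 4 of the 7 promoters (SEMA3D, both SEMA3E starts and PLXNA2), against 12.4% of all promoters. TGTTTAC or TATTTAC, the letters of forkhead factors, stand in SEMA3C start 1 and SEMA3E start 1, against 4.8% of all. GGTGTGA (T-box) and CANCTG (E-box) stand in SEMA3D alone, against 3.3% and 47.5%, and ACAAT (SOX) in SEMA3E start 2 alone, against 21.5%. None of the 7 windows holds ATGCAAAT (octamer), TGANTCA (AP-1), GGAATG (TEAD) or the HNF1 motif. A match is a string of letters and shows no binding.

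Regions over the whole of each locus were then compared between stages. A region is called gained when it was strict in every library of the later stage and without a peak in every library of the earlier, and lost in the reverse case. From hESC to hDE, 14 of the 195 regions were gained (7.18%, against 5.43% of all regions) and 1 was lost (0.51%, against 1.15%). From hDE to hAFE, 3 were gained (1.54%, against 2.05%) and 10 lost (5.13%, against 3.20%). From hAFE to hPFE, 26 were gained (13.33%, against 8.45%) and 8 lost (4.10%, against 4.18%). Directly from hESC to hPFE, 39 of the 195 were gained, against 13.4% of all regions, and 15 lost (7.69%, against 6.62%). Consecutive comparisons share libraries, and the choice of SEMA3D and NRP1 used 2 of them, so that nothing is read from these differences. Without SEMA3D the gains from hAFE to hPFE were 16 of 169 (9.47%), and without NRP1 the gains from hESC to hDE were 9 of 174 (5.17%). Some counts rest on 1 library: without hDE replicate 1 there were 29 gained from hESC to hDE and 20 lost from hDE to hAFE, without hAFE replicate 1 there were 6 gained from hDE to hAFE, and without hAFE replicate 2 there were 17 lost. Losses from hAFE to hPFE were 13 and 16 without hAFE replicates 1 and 2, and losses from hESC to hPFE were 24 with either hESC library left out. With 2 libraries against 2 the smallest two-sided exact p is 0.333, and hPFE has 1 library, so no p is given.

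Counts between single libraries stand beside those between replicates as a description, since they include the gains that chose SEMA3D and NRP1. Between an hDE and an hESC library, 21 to 35 regions of the loci were strict in the first and had no peak in the second (10.77 to 17.95%, against 7.64 to 12.98% of all regions), and 6 to 14 the reverse (3.08 to 7.18%, against 4.35 to 5.52%). Between replicates of these stages the same count was 0 to 2 (0.0 to 1.03%, against 0.05 to 1.65%). At close backgrounds (4.62 in hESC replicate 2 and 4.58 in hDE replicate 1), 21 opened (10.77%, against 7.64% of all regions) and 6 closed (3.08%, against 5.09%). The strict limits of these 2 libraries still differed, at a −log10 p of 36.19 and 15.42, and the part of depth was not tested. From hAFE to hPFE 31 to 35 opened (15.9 to 17.95%, against 10.19 to 10.64%) and 13 to 16 closed (6.67 to 8.21%, against 7.73 to 8.69%). By this count the hAFE replicates differed by 0 to 1 (0.0 to 0.51%, against 0.5 to 0.69%), and the spread of hPFE is not known from 1 library. Replicates differed more in their strict regions at the loci. These numbered 62 and 48 in the hESC pair, 55 and 72 in the hDE pair and 42 and 51 in the hAFE pair. From hDE to hAFE 4 to 9 opened (2.05 to 4.62%, against 5.31 to 6.66%) and 15 to 28 closed (7.69 to 14.36%, against 5.34 to 9.36%).

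**Figure D2:**
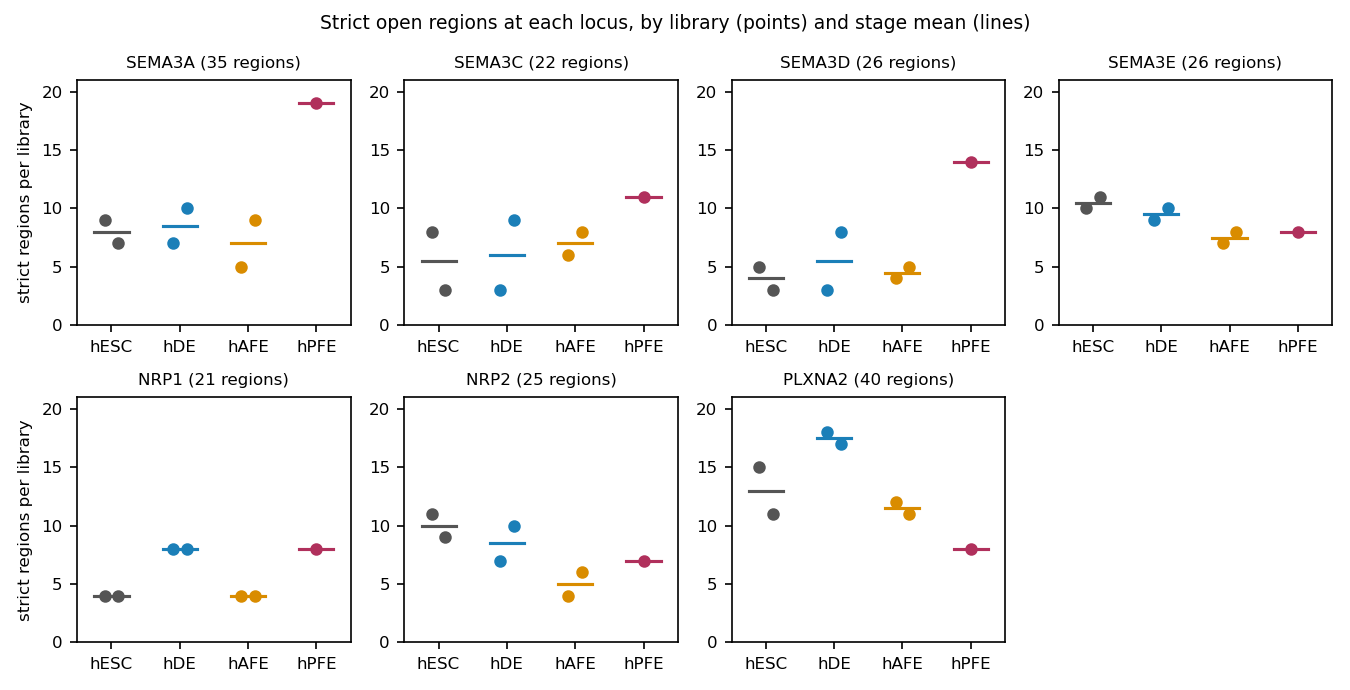
Number of strict regions at each locus in each library (points), with the mean of each stage (lines); hPFE is 1 library. SEMA3D and SEMA3A are highest in hPFE (14 and 19), and NRP1 has 8 in each hDE library against 4 in each hESC and hAFE library.

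SEMA3D, a ligand that guides axons and neural crest cells and is needed for the patterning of the pulmonary veins, spans chr7:84995553-85250243. It had 5 and 3 strict regions in the hESC pair, 3 and 8 in the hDE pair, 4 and 5 in the hAFE pair and 14 in hPFE. The hPFE count lay above all other libraries. Against each hAFE library alone, 10 to 11 regions opened. From hAFE to hPFE 10 regions were gained (38.46%, against 8.45% of all regions) and 0 lost (0.0%, against 4.18%). Of these 10, 8 lay inside the gene, and the closest to the RefSeq start was 35643 bp from it. The summits of 3 lay within 5319 bp of each other and those of 4 within 15293 bp, at 85056075, 85066049, 85069113 and 85071368. Their heights in hPFE were 7.07, 14.1, 10.8 and 10.6, and the only other peak over them was one of height 3.79 in hESC replicate 1, at the one at 85066049. Another region among them, at 85067541, had a height of 12.2 in hPFE and was not gained, because hAFE replicate 2 had a peak of height 3.90 there.

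Further regions inside SEMA3D, at 85114528 and 85136104, reached 12.2 and 10.6 in hPFE, and the first had a peak of 7.05 in hDE replicate 2. The gained regions at 85222699 and 85238115 were lower, at 6.18 and 6.36, and had no peak in another library. Beyond the gene's higher end, the regions at 85263077 and 85304488 had heights of 13.1 and 8.13 in hPFE. These last regions also had weaker peaks in earlier stages, 3.90 in hESC replicate 2 and 5.67 in hDE replicate 2 at the first, and 3.06 and 5.29 in the hDE pair at the second. In all, 6 of the 10 had no peak in any other library. Other SEMA3D regions were open at other stages. The region at 85046712 was strict only in hAFE (22.5 and 15.3, with 4.27 in hESC replicate 1, no peak in hESC replicate 2 or hDE replicate 1, 5.67 in hDE replicate 2 and 3.71 in hPFE). The one at 84979691, outside the gene, had peaks in the hDE pair alone (12.4 and 24.4).

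**Figure D3:**
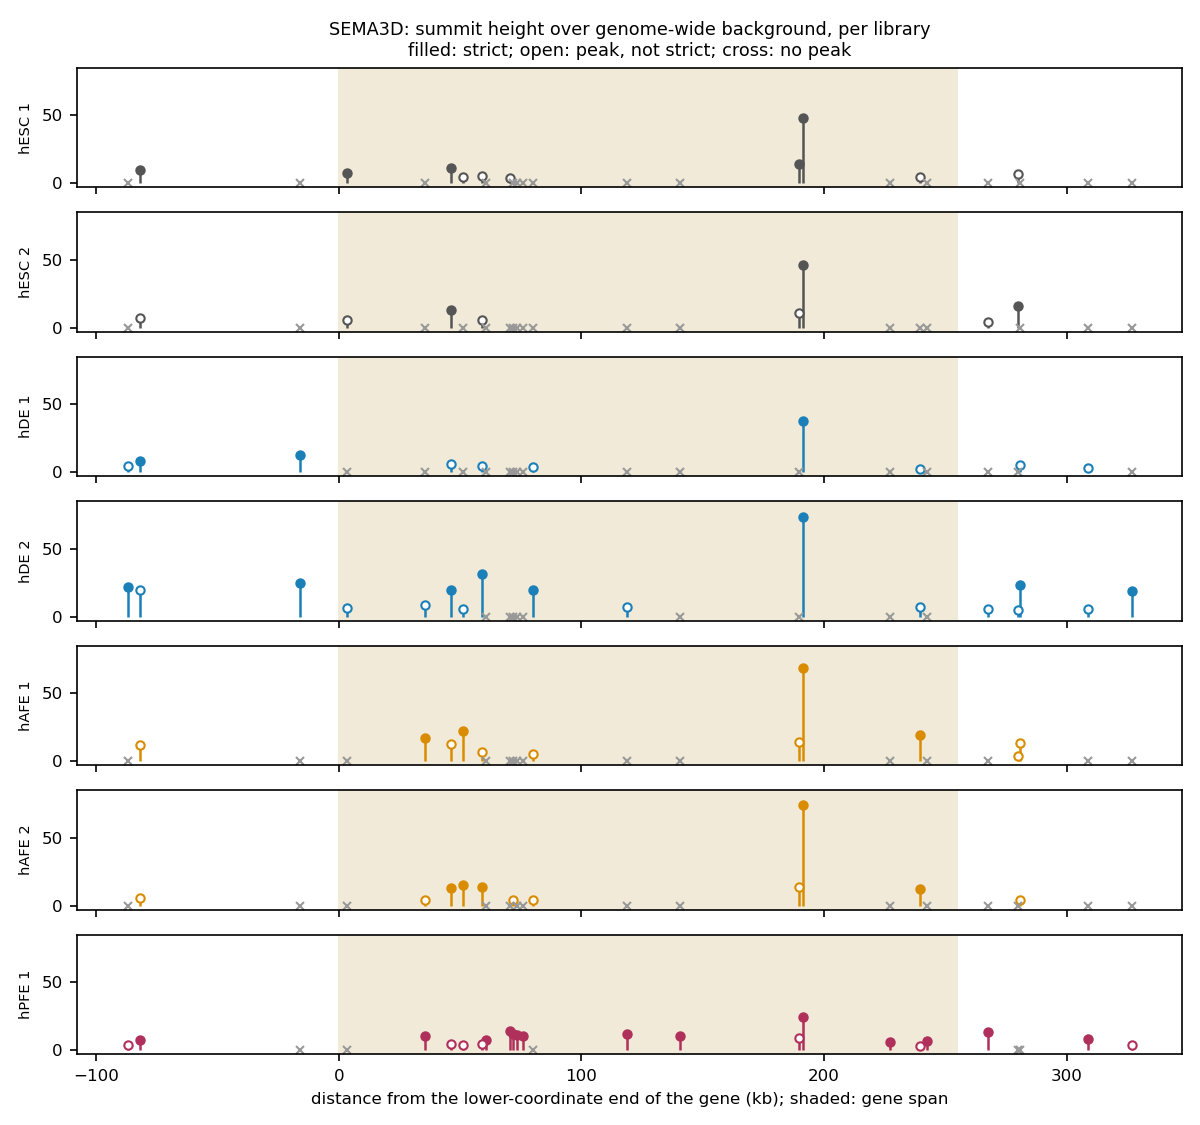
Summit height of each of the 26 SEMA3D regions in each library, against the distance from the gene's lower-coordinate end in kb; filled points are strict, open points are weaker peaks and crosses mark no peak. The region at the start is strict in every library, and the hPFE panel alone has the group of strict regions at 60 to 76 kb.

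SEMA3A, a classical repellent of sensory axons, spans chr7:83955777-84492725. Its strict regions numbered 9 and 7 in the hESC pair, 7 and 10 in the hDE pair, 5 and 9 in the hAFE pair and 19 in hPFE, and none was strict in all 7 libraries. All 6 regions gained from hAFE to hPFE (17.14%, against 8.45% of all regions) had no peak in any other library. They lay at 83882668, 84058923, 84060871, 84088899, 84237719 and 84394402, with heights of 6.54 to 11.5, and the first lay outside the gene. The shortest stretch with 4 of them was 178796 bp. At SEMA3D, a shorter gene with 10 such regions, it was 15293 bp. The highest SEMA3A region in hPFE was not among them. It lay at 84412395, with 30.7 in hPFE, 5.21 in hESC replicate 1, 3.06 in hDE replicate 1, 4.05 and 4.94 in the hAFE pair without a peak in the remaining 2 libraries. From hESC to hDE 1 region was gained (2.86%, against 5.43% of all regions), or 3 without hESC replicate 2 and 2 without hDE replicate 1. The 1 region lay at 84178170, with 15.3 and 40.3 in the hDE pair, 9.09 in hAFE replicate 2 and 11.7 in hPFE. In the other direction, the region at 84277813 had 24.6 and 50.4 in the hESC pair, no peak and 4.16 in the hDE pair, 9.46 and 18.4 in the hAFE pair and no peak in hPFE. From hAFE to hPFE 1 region was lost (2.86%, against 4.18% of all regions). Both replicates of hAFE were strict at this region, 84108293 (20.7 and 8.83), where hPFE had no peak. The earlier libraries had peaks there that were not strict, 3.32 and 8.44 in the hESC pair and 3.93 and 16.4 in the hDE pair. The height in hDE replicate 2 thus lay above that in hAFE replicate 2. Outside the gene, 84529564 had a height of 18.4 in hPFE, 8.82 in hDE replicate 2, 5.41 in hAFE replicate 1 and no peak in hESC.

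SEMA3C, an attractant in the cardiac outflow tract, spans chr7:80742538-80922389, and its window also holds CD36. It had 8 and 3 strict regions in the hESC pair, 3 and 9 in the hDE pair, 6 and 8 in the hAFE pair and 11 in hPFE, so that the replicates of hESC and hDE differed by more than their stages did. One region inside the gene, at 80902919, had peaks in the hAFE pair alone (52.3 and 16.9). The region at 80823254 was highest there as well, with 51.8 and 28.1 in the hAFE pair, 3.71 and 6.42 in the hDE pair, 7.77 in hPFE and no peak in hESC. Outside the gene, the region at 80708455 had peaks in the hDE pair alone (12.9 and 46.1). The 2 regions gained from hAFE to hPFE (9.09%, against 8.45% of all regions), at 81004176 and 81013138, also had peaks in hESC and hDE. The second was strict in both hESC libraries (9.48 and 11.7). From hAFE to hPFE 2 regions were also lost (9.09%, against 4.18% of all regions). Compared with hESC, the strongest region new in hPFE was 80883654, with 22.6 in hPFE, 5.86 and 3.64 in the hAFE pair and no peak before.

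SEMA3E, which restrains vessel growth through plexin D1, spans chr7:83363238-83649139. Its strict regions numbered 10 and 11 in the hESC pair, 9 and 10 in the hDE pair, 7 and 8 in the hAFE pair and 8 in hPFE. The counts thus lay between 7 and 11, while the regions themselves differed by stage. From hESC to hDE 3 regions were gained (11.54%, against 5.43% of all regions). They were 83666524 (20.5 and 44.5, with 3.12 in hAFE replicate 2), 83678266 (7.86 and 38.3) and 83386558 (9.39 and 24.3), the last 2 with peaks in the hDE pair alone. The first and second lay 17385 and 29127 bp beyond the gene end that holds start 1. In the same stretch, 83695560 had 13.3 and 25.8 in the hESC pair, 3.28 and 15.9 in the hDE pair and no peak later, and 83685165 was strict in every library, with 20.8 in hPFE and 110 in hAFE replicate 1 as its lowest and highest heights. From hAFE to hPFE 2 regions were gained (7.69%, against 8.45% of all regions) and 1 was lost (3.85%, against 4.18%). The region at 83429701 had peaks from 6.11 to 18.0 in the first 6 libraries, strict in both of hESC and both of hAFE, and none in hPFE. The regions at 83677289 and 83348244 were strict in hPFE (12.7 and 15.4), the first also in hESC replicate 1 (7.11). Weaker peaks at the first were 6.28 in hESC replicate 2 and 11.7 in hDE replicate 2. The second had 4.80 and 11.6 in the hDE pair and 6.49 in hAFE replicate 2.

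NRP1, the neuropilin that binds SEMA3A and vascular endothelial growth factor A, spans chr10:33177493-33334667. It had 4 strict regions in each hESC library, 8 in each hDE library, 4 in each hAFE library and 8 in hPFE. In every pairing of an hDE with an hESC library, 6 regions opened. From hESC to hDE 5 regions were gained (23.81%, against 5.43% of all regions) and 0 lost (0.0%, against 1.15%). One lay inside the gene at 33331312, 3355 bp from the higher end, with 39.96 and 52.6 in the hDE pair without a peak in the remaining 5 libraries. The region at 33316023 had 25.1 and 53.1, and the one at 33237078 had 10.7 and 31.1, both with no peak outside hDE. These 3 were lost again from hDE to hAFE (14.29%, against 3.20% of all regions). At 33274641 the height was 11.8 and 24.8 in the hDE pair and 10.8 and 7.53 in the hAFE pair, with no peak in hPFE. Only the region at 33387192, outside the gene, was strict at all later stages, with 10.5 and 34.9 in the hDE pair, 57.2 and 11.9 in the hAFE pair and 9.01 in hPFE. A further region, at 33327955, had peaks in hESC (5.69 and 6.71) and was higher in hDE (22.9 and 39.7), with no peak and 3.38 in the hAFE pair and none in hPFE.

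Of the 8 strict NRP1 regions of hPFE, those at 33335228 and 33387192 were also strict in an hDE library and the others in neither. The most open was at 33238146, with 29.9 in hPFE, 5.69 and no peak in the hESC pair, no peak and 15.4 in the hDE pair and 8.56 and 3.38 in the hAFE pair. It is the neighbour of the region at 33237078. The region at 33264400 had 18.6 in hPFE, 5.20 in hAFE replicate 2 and no peak elsewhere. From hAFE to hPFE 2 regions were gained (9.52%, against 8.45% of all regions) and 0 lost (0.0%, against 4.18%). The gained regions were 33252871 (6.54, no other peak) and 33421993 (12.7, with 5.63 in hESC replicate 2). Near the gene's higher end, the region at 33335228 had peaks throughout, of 11.8 and 19.3 in the hESC pair, 24.2 and 32.6 in the hDE pair, 46.4 and 35.8 in the hAFE pair and 16.3 in hPFE. On the other side of the gene, 33096234 and 33106984 were strict in both hESC libraries (9.01 and 14.1, and 7.58 and 16.0) and had no peak in hAFE or hPFE.

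**Figure D4:**
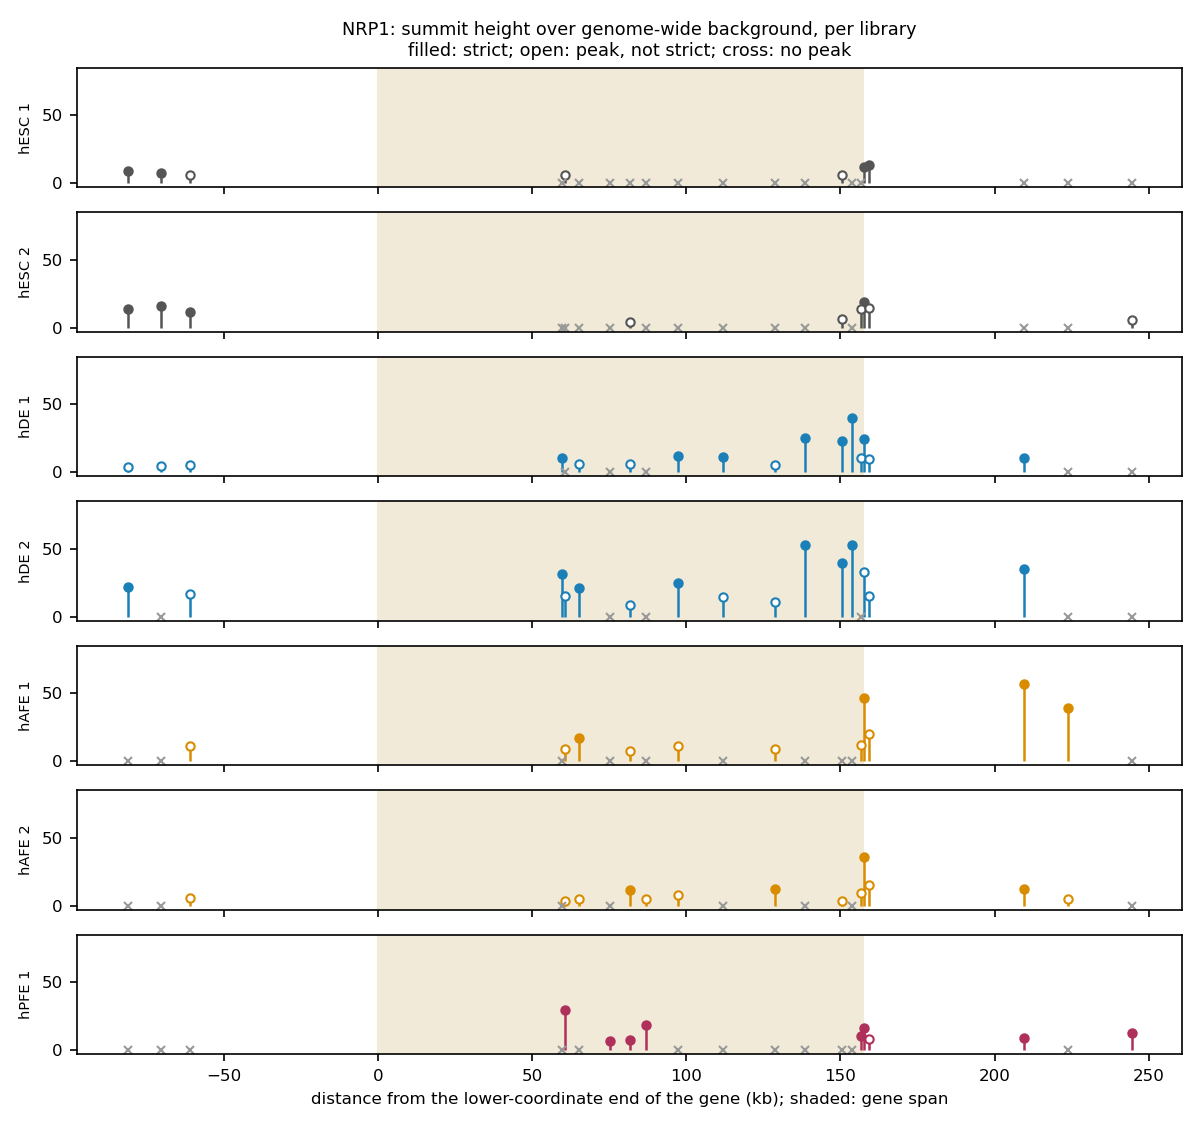
Summit height of each of the 21 NRP1 regions in each library, against the distance from the gene's lower-coordinate end in kb; filled points are strict, open points are weaker peaks and crosses mark no peak. Both hDE panels have 2 tall regions near the gene's higher end (25.1 to 53.1) that are crosses in the other 5 libraries.

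NRP2, the neuropilin that binds SEMA3C and vascular endothelial growth factor C, spans chr2:205682501-205798131, and its window also holds PARD3B. It had 11 and 9 strict regions in the hESC pair, 7 and 10 in the hDE pair, 4 and 6 in the hAFE pair and 7 in hPFE. Unlike at SEMA3D, 0 regions were gained from hAFE to hPFE (0.0%, against 8.45% of all regions), or 1 without either hAFE library in turn. At the same step 1 was lost (4.0%, against 4.18%), or 2 without hAFE replicate 1. The difference between these loci was not tested. Upstream of its start, different regions were open at different stages. Those at 205673461 (18.3 and 39.3) and 205628550 (7.64 and 22.0) had peaks in the hDE pair alone. The region at 205617994 had peaks in the hAFE pair alone (30.2 and 10.4), and 205670980 had 30.2 and 22.9 in the hAFE pair and 4.95 in hPFE. Inside the gene, 205748880 was the only region of the 7 loci lost from hESC to hDE, with 14.7 and 14.5 in the hESC pair, no peak in hDE, 5.41 and 4.68 in the hAFE pair and 14.7 in hPFE. Compared with hESC, hPFE had no peak at 205650564 (20.4 and 27.5 in the hESC pair) or 205776297 (13.3 and 31.8), and was strict at 205837857 (10.1), where hESC had no peak.

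PLXNA2, a plexin receptor of the A class, spans chr1:208022242-208244384 and had the densest locus, with 9.48 regions per 100 kb. Its strict regions numbered 15 and 11 in the hESC pair, 18 and 17 in the hDE pair, 12 and 11 in the hAFE pair and 8 in hPFE, so hDE was highest and hPFE lowest. From hESC to hDE 1 region was gained (2.5%, against 5.43% of all regions), at 208113283 (11.1 and 27.7 in the hDE pair alone). The count was 4 without hESC replicate 1 and 2 without any other 1 library of these stages. Several others had weak peaks before and much higher ones in hDE. At 208280935 the height was 4.27 and no peak in the hESC pair, 50.4 and 73.6 in the hDE pair, no peak and 4.68 in the hAFE pair and no peak in hPFE. At 208083620 it was 6.64 and 5.63 in the hESC pair, 43.5 and 47.2 in the hDE pair, no peak and 3.38 in the hAFE pair and no peak in hPFE. At 208120094 it was 3.32 and no peak in the hESC pair, 27.9 and 42.8 in the hDE pair, no peak and 6.49 in the hAFE pair and 4.42 in hPFE. The 4 regions gained from hAFE to hPFE (10.0%, against 8.45% of all regions) lay at 207944745, 208086239, 208154850 and 208184561. Their heights were 18.9, 12.5, 7.60 and 20.5, and they had no peak in any other library. At the same step 3 regions were lost (7.5%, against 4.18% of all regions). Among the lost regions, 208233731 was strict in all 6 earlier libraries, from 18.5 to 40.3, and had no peak in hPFE. The region at 207925346, the farthest from the gene, had 7.58 and 16.2 in the hESC pair and 60.4 and 23.9 in the hAFE pair and had no peak in hPFE.

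A rule on height, chosen after the data were seen, counts such graded changes. A rise needs a lowest height in one stage of at least 3 times the highest in the other, with no peak set to the library's weakest deposited height. From hESC to hDE, NRP1 and PLXNA2 had 7 rises each of the 20 at the 7 loci (10.26%, against 5.21% of all regions), and there were 2 falls (1.03%, against 1.09%). From hDE to hAFE there were 4 rises (2.05%, against 4.12%) and 14 falls (7.18%, against 3.87%), 5 of the falls at NRP1 and 4 at PLXNA2. Directly from hESC to hPFE there were 25 rises (12.82%, against 6.74%) and 28 falls (14.36%, against 14.3%). From hAFE to hPFE there were 21 rises (10.77%, against 4.94%), 7 of them at SEMA3D, and 32 falls (16.41%, against 18.2%), 11 of them at PLXNA2 and 6 at SEMA3E. The median height of all strict regions was also lower in hPFE (11.7) than in hAFE (33.8 and 19.0).

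Most of the regions gained at the 7 loci in hDE had no peak later. Of the 14, 10 (71.4%) had no peak in either hAFE library, against 40.7% of the 7050 gained among all regions, and 12 (85.7%) had none in hPFE, against 76.3%. These values are descriptions, since the gains entered the choice of NRP1. All 10 regions lost from hDE to hAFE had no peak in hESC or hPFE either, as had 69.17% (hESC) and 88.15% (hPFE) of the 4152 lost among all regions. Of the 26 gained in hPFE, 18 (69.2%) had no peak in any other library, against 73.9% of the 10959 among all regions. No region gained at either step lay within 1 kb of a gene end. Of all 195 regions, 7 did. Of those gained in hPFE 18 of 26 lay inside the genes, at a median of 76656 bp from the nearest end, and of those gained in hDE 7 of 14, at a median of 31605 bp, beside 122 of 195 and 52525 bp for all regions of the loci. The table of genes gives spans, so exons, introns and untranslated regions were not told apart.

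**Figure D5:**
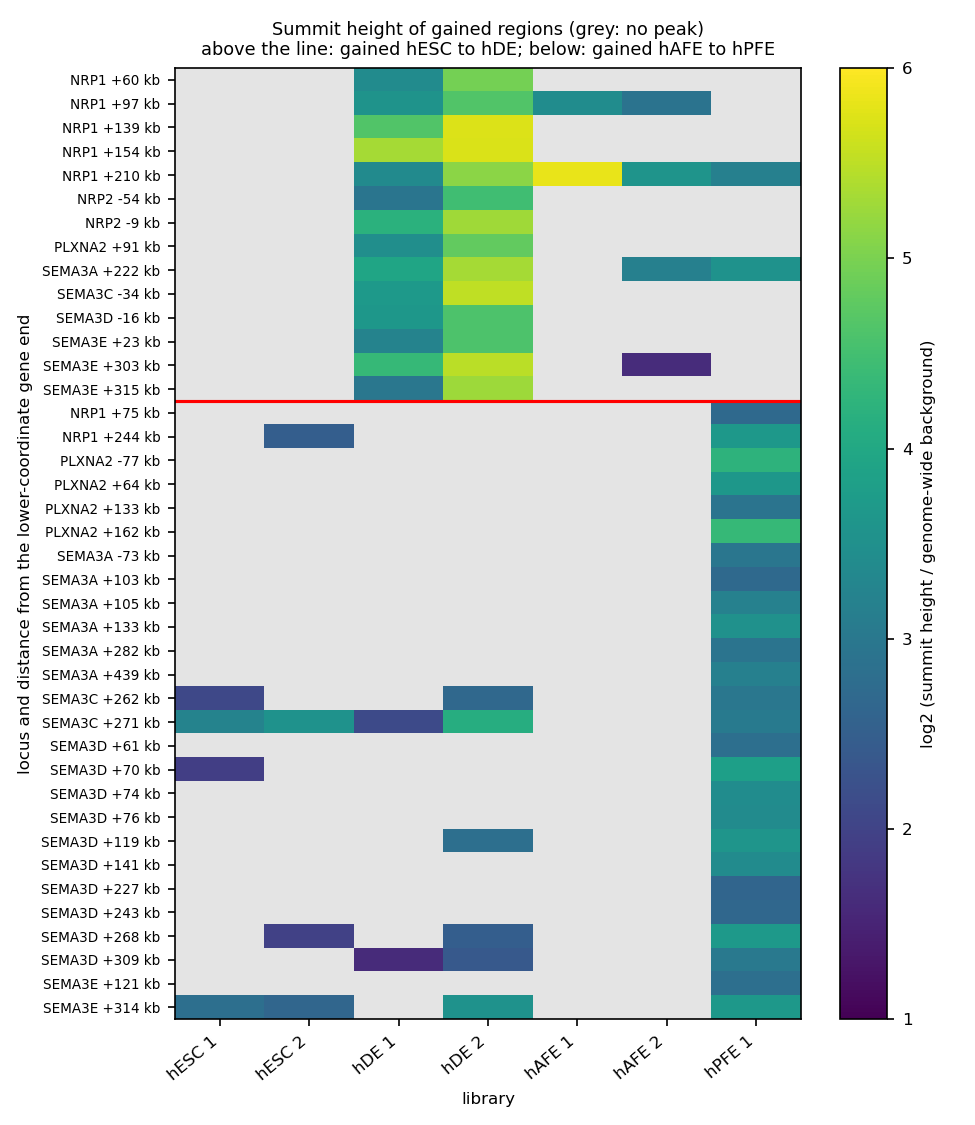
Summit height over background (log2 colour scale, grey for no peak) in each library for the 14 regions gained from hESC to hDE, above the line, and the 26 gained from hAFE to hPFE, below it; each row is named by its locus and the distance from the gene's lower-coordinate end. Of the upper 14, 10 are grey in both hAFE libraries, and of the lower 26, 18 are grey in all libraries but hPFE.

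The limit of 100 kb cuts through open chromatin. The outermost region inside it lay 96896 bp from PLXNA2, with 7.58 and 16.2 in the hESC pair, 5.90 and 8.06 in the hDE pair, 60.4 and 23.9 in the hAFE pair and no peak in hPFE. The first beyond it lay 101709 bp from NRP2 and had a peak in hPFE alone (6.89). At SEMA3D a region 111378 bp away had peaks in the hDE pair alone (24.2 and 48.2) and was not counted.

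The other genes of the pathway were described in the same way. Counts are given for the steps to hDE, hAFE and hPFE in turn, at which 5.43%, 2.05% and 8.45% of all regions were gained and 1.15%, 3.20% and 4.18% lost. The other class 3 semaphorins (SEMA3B, SEMA3F and SEMA3G) had 57 regions, with 0, 3 and 1 gained (0.0%, 5.26% and 1.75%) and 1, 0 and 2 lost. The 8 other plexins had 164 regions, with 10, 1 and 7 gained (6.10%, 0.61% and 4.27%) and 1, 1 and 5 lost. PLXNA4 and PLXNA1, which pair with neuropilins as PLXNA2 does, had 4 and 2 gained in hDE and 2 and 3 in hPFE, and PLXNC1 had 2 and 2. At the step to hPFE PLXNA4 also lost 1 and PLXNC1 2. The 13 semaphorins of classes 4 to 7, most of them membrane proteins, had 287 regions, with 13, 3 and 19 gained (4.53%, 1.05% and 6.62%) and 3, 9 and 12 lost. SEMA5A had 9 of those gained in hPFE and 0 lost, SEMA6D had 6 gained in hDE, 4 lost in hAFE and 7 lost in hPFE, and SEMA6A had 2, 1 and 3 gained and 0, 1 and 1 lost. The vascular endothelial growth factors and their receptors (8 genes, 132 regions) had 6, 5 and 8 gained (4.55%, 3.79% and 6.06%) and 2, 3 and 4 lost. Gains at the 3 steps were 2, 3 and 4 at VEGFC, 1, 0 and 2 at VEGFA and 0, 0 and 1 at KDR, the main receptor on endothelium and also 1 of the endothelium markers used below. Losses were 0, 2 and 2 at VEGFC, 0, 0 and 1 at VEGFA and 2, 1 and 1 at KDR. The 18 intracellular transducers and coreceptors had 383 regions, with 8, 6 and 30 gained (2.09%, 1.57% and 7.83%) and 6, 4 and 16 lost. MICAL2, a flavoprotein that takes actin filaments apart, had 5 gained and 1 lost at the step to hPFE. NRCAM had 3 gained and 5 lost there, and FARP1 2 gained and 4 lost. MICAL3, named after its values were seen, had 7 gained there, the most of these 18 genes, and 1 lost.

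Markers were read as strict regions per library. The 4 stem cell genes had 33 and 40 in the hESC pair, 28 and 21 in the hDE pair, 25 and 21 in the hAFE pair and 18 in hPFE. In hPFE these were 8 at POU5F1, 7 at NANOG, 3 at SFRP2 and 0 at DPPA4. The hESC pair had 9 and 17 at POU5F1, 6 and 10 at NANOG, 9 and 5 at SFRP2 and 9 and 8 at DPPA4. The 4 definitive endoderm genes had 17 and 14 in the hESC pair, 37 and 30 in the hDE pair, 25 and 24 in the hAFE pair and 18 in hPFE. The 4 foregut and pharynx genes had 18 and 26 in the hESC pair and 27 to 31 at the later stages, with no order among these. Markers of other cell types were open as well: the 6 mesenchyme genes had 25 to 36 strict regions per library and 33 in hPFE, the 5 endothelium genes 27 to 34 and 27 in hPFE, the 4 neural crest genes 21 to 31 and 31 in hPFE, and the 3 neural genes 8 to 17 and 8 in hPFE. Of the 83 mesenchyme regions 9 were gained from hAFE to hPFE (10.84%, against 8.45% of all regions), at 6 of the 6 genes. Lost there were 3 (3.61%, against 4.18%), and the hAFE pair had 34 and 34 strict. Of the 74 neural crest regions 4 were gained (5.41%). The shares gained were 6.17% for endothelium, 2.86% for neural, 2.94% for foregut and pharynx, 2.82% for stem cell and 1.67% for definitive endoderm genes. Lost in these last lists were 3.7%, 5.71%, 1.47%, 2.82% and 3.33%, and 1.35% for neural crest. The part of cells of other types in the gains was not tested.

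By the number of strict regions over the 7 libraries, the genes most like SEMA3D among 17085 were GPR37 (Pearson r = 0.98), CFAP95 (0.98), TEP1 (0.97), PARP2 (0.97) and DAOA (0.97). Of the members, SEMA3A (0.96) and SEMA3C (0.84) came closest, and PLXNA2 (-0.46) was least like it. For NRP1 they were RC3H2 and ZBTB26 (1.0 each, over a range of 6 to 7 and 5 to 6 regions), EREG (0.99), MRPL1 (0.98) and C1QL3 (0.97). EREG, which encodes the growth factor epiregulin, had 4 and 4 strict regions in the hESC pair, 8 and 8 in the hDE pair, 3 and 4 in the hAFE pair and 8 in hPFE. All these counts come from the same 7 libraries and share their depth, and the values describe likeness only.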

How the data were processed

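The authors deposited 1 peak list per library, none pooled over replicates. The deposited values are a fold enrichment (a ratio) of each summit over its local background, a −log10 p, a −log10 q and a display score, which was not used. The build was hg38 and DiffBind was used, per the submitters' processing notes; the sources used here do not name the aligner or peak caller. Between 298508 and 299374 peaks were deposited per library, from lists that ended at 300000. Fold and −log10 p together gave a whole-number summit pileup in 100% of peaks within 0.001 of −log10 p, and the most frequent local background served as the genome-wide one. No read depth is given in the files, so no counting interval is printed.

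Peaks overlapping by at least 1 bp were merged and ranked by −log10 p with Python 3.11.15, NumPy 2.4.6, pandas 2.3.3 and SciPy 1.17.1, on chromosomes 1 to 22 and X. A region's place is the summit of its best-ranked peak. The code of the calls was run on planted regions that met or broke the rule by construction, for hESC to hDE only. That checks the code and says nothing about regions near the strict limit or about unequal depth. Groups and replicate numbers come from the sample titles. The members and lists were chosen with earlier results of these data known. Named genes were the members, the 3 genes of each pathway list with the most gained plus lost regions, and the 5 genes with at least 8 regions most like SEMA3D and NRP1; among regions, the strongest gained and lost of each comparison and the one nearest each start follow from a rule, and the others were chosen after their values were seen. Alternatives were other limits for strict, a window of 20 kb, the nearest gene end and a larger overlap of a peak with a region. Further ones were each library left out and the rule on height.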

Additional observations from a re-analysis of the deposited data

How the results depend on the processing

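The counts at the 7 loci depend on the limit set for strict. Gained regions are given for the 3 steps in turn and then for the direct comparison of hESC with hPFE, and lost regions after them in the same order. As reported they were 14, 3, 26 and 39 gained and 1, 10, 8 and 15 lost. With the 25,000 strongest regions they were 6, 1, 10 and 17, and 0, 4, 2 and 7. With the 100,000 strongest they were 38, 11, 59 and 78, and 12, 27, 33 and 47. With summits at least 10 times the background they were 15, 5, 12 and 20, and 2, 10, 8 and 11. Where strict meant a deposited −log10 q of 5 or more, they were 42, 16, 51 and 68, and 7, 29, 43 and 27. With a window of 20 kb they were 10, 2, 19 and 32, and 1, 7, 6 and 7. With each region given to the nearest gene end they were 11, 2, 18 and 30, and 1, 8, 5 and 12. A larger overlap required to match a peak to a merged region changed none of the 8 counts. Under the rule on height, chosen after seeing the data, they were 20, 4, 21 and 25, and 2, 14, 32 and 28.

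Without each replicate in turn, the gained regions ranged from 17 to 29, from 3 to 6, from 31 to 35 and from 45 to 45, and the lost from 2 to 7, from 11 to 20, from 13 to 16 and from 24 to 24. The highest count of the first, 29, came without hDE replicate 1, the deeper hDE library then standing alone, and the loss of 20 from hDE to hAFE came without that library too. The 1 region lost from hESC to hDE became 7 when hESC replicate 2 was left out, 3 when either hESC replicate 1 or hDE replicate 2 was, and 2 when hDE replicate 1 was. At NRP1 the gain from hESC to hDE was 5 to 6 and at SEMA3D the gain from hAFE to hPFE was 10 to 11 without any 1 library. Counts at other loci moved by over 1.5 times, among them the following. Gains from hESC to hDE were 2 to 7 at NRP2 (7 without hDE replicate 1, reported as 2), 1 to 5 at SEMA3D, 1 to 3 at SEMA3A, 1 to 3 at SEMA3C and 2 to 4 at PLXNA2 (reported as 1 each). Gains from hESC to hPFE at NRP1 were 4 to 6 (reported as 3), and losses from hAFE to hPFE at PLXNA2 were 4 to 7 (reported as 3). With fewer libraries a call has fewer conditions to meet. Of the alternative values, 42 lay within 1.5 times the reported count and 46 did not. No paired analysis was possible because the result comes from no test and hPFE has 1 library. A missing peak does not mean the same height in each library, since the weakest deposited heights ran from 2.47 in hPFE to 3.78 in hDE replicate 2.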
